A study of Homo sapiens with 18 samples.

Results

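Messenger RNA was compared between MDA-MB-231 cells whose IMPDH2 knockout had been given a cytosolic form of the enzyme (called NES cells after the sample titles) and the same knockout without it (KO). The comparison took 6 of the 18 libraries of the series, 3 of each group, chosen by their titles and not by any measured value. MDA-MB-231 is an established triple-negative breast cancer line. The other groups, each of 3 libraries, served here as side values: KO cells with a nuclear form (NLS cells), KO cells with IMPDH2 that the labels place nowhere in particular (unlocalised IMPDH2), KO cells fed 400 µM guanosine, and unedited cells (WT). NES and KO cells both carried the knockout and grew without added guanosine, as did the NLS and unlocalised cells. The labels give no promoter for the restored enzyme and do not say whether a group was 1 clone or a pool. Nor do they say whether the replicates were separate cultures, and each p-value therefore measures only the spread between these libraries. The genotype of the NES libraries reads Cytosolic-IMPDH2, Cytosolic-IMPDH3 and Cytosolic-IMPDH4 and the number of the cell line climbs in the same way, while their titles all name cytosolic IMPDH2, and the titles were followed.

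Total estimated counts per library, in units of 1000000, were 49.5 to 63.3 in NES and 51.6 to 59.7 in KO, and 19252 of 62749 genes passed the filter on low counts. Mitochondrially encoded genes took 7.51% to 7.95% of the counts in NES and 7.57% to 7.91% in KO. Levels are given as CPM, counts per 1000000 after TMM scaling of the library sizes, and each test is the quasi-likelihood test of edgeR, with p-values adjusted by the Benjamini-Hochberg method over all 19252 genes. A gene was called higher, lower or changed at an adjusted p under 0.05. All 8 basal markers of the line were expressed (summed level 9150 to 9370 CPM in NES, 7140 to 7570 in KO, scaled by library totals). The 11 blood and endothelial markers summed to 600 to 636 CPM in NES and 734 to 773 in KO, nearly all of it the lysosomal CD68 with 579 to 615 CPM in NES and 702 to 740 in KO. The endothelial receptor KDR had 15.88 to 15.96 CPM in NES and 23.6 to 26.2 in KO, and PECAM1 2.97 to 3.45 in NES and 4.16 to 5.81 in KO. The part of these markers in the results was not tested. CDH5, CD3E and HBB had 0 counts in all 6 libraries, which allows up to 0.0182 CPM in NES and 0.0183 in KO for counting error alone.

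IMPDH2 is inosine monophosphate dehydrogenase, which turns IMP into XMP and so commits purines to the guanine nucleotides. GTP and dGTP made from it feed RNA and DNA synthesis and the many enzymes that use GTP, and the reaction consumes NAD+. IMPDH1 is a second enzyme with the same activity. Although known as a cytosolic enzyme, IMPDH2 is also found in the nucleus, and the title of the series links its nuclear form to the activity of PARP1, the main DNA damage-activated ADP-ribosyltransferase, which also uses NAD+.

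IMPDH2 (ENSG00000178035.13) lies on the minus strand of chromosome 3, from 49024325 to 49029408 in GRCh38. It stood at 371, 395 and 371 CPM in NES cells, against 41.4, 42.3 and 41.2 CPM in KO cells. The groups were far apart, with a 9.10-fold higher level in NES cells (log2 fold change 3.19 ± 0.033 SE, adjusted p = 1.07e-20). The NES mean was 119% of the WT mean, and the KO mean was 13.1% of it. The main coding transcript alone held 18591, 23353 and 17480 estimated reads in NES cells, against 0, 1204 and 1022 in KO cells. In the KO library with 0, a nonsense-mediated decay transcript of the gene held the reads, and it was at 0 in the other KO libraries, so this split within the gene is uncertain.

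A locus without a gene symbol, ENSG00000290315, for which the annotation used here has no position, moved even further. Its levels were 198, 182 and 196 CPM in NES cells, against 3.54, 3.34 and 3.198 CPM in KO cells, which is 57.2-fold higher. QRICH1, a glutamine-rich protein gene whose 3' end lies next to the start of IMPDH2 on chromosome 3 (49029707 to 49094363, minus strand, GRCh38), went the other way. It had 18.2, 24.0 and 12.9 CPM in NES cells and 92.2, 95.5 and 92.5 CPM in KO cells (log2 fold change -2.33 ± 0.15 SE, adjusted p = 6.31e-10), and it was singled out after its values were seen. Added together, QRICH1 and ENSG00000290315 stood at 210 ± 5.13 CPM in NES and 96.8 ± 1.77 in KO (SD, n = 3 each), 2.17-fold higher. Salmon divides reads that fit several transcripts, and whether these loci and IMPDH2 share reads was not tested, so the value of each of the 3 alone is uncertain. The sum of all 3 loci was 589 ± 10.7 CPM in NES and 138 ± 2.33 in KO, or 120% and 28.2% of the WT sum.

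**Figure D1:**
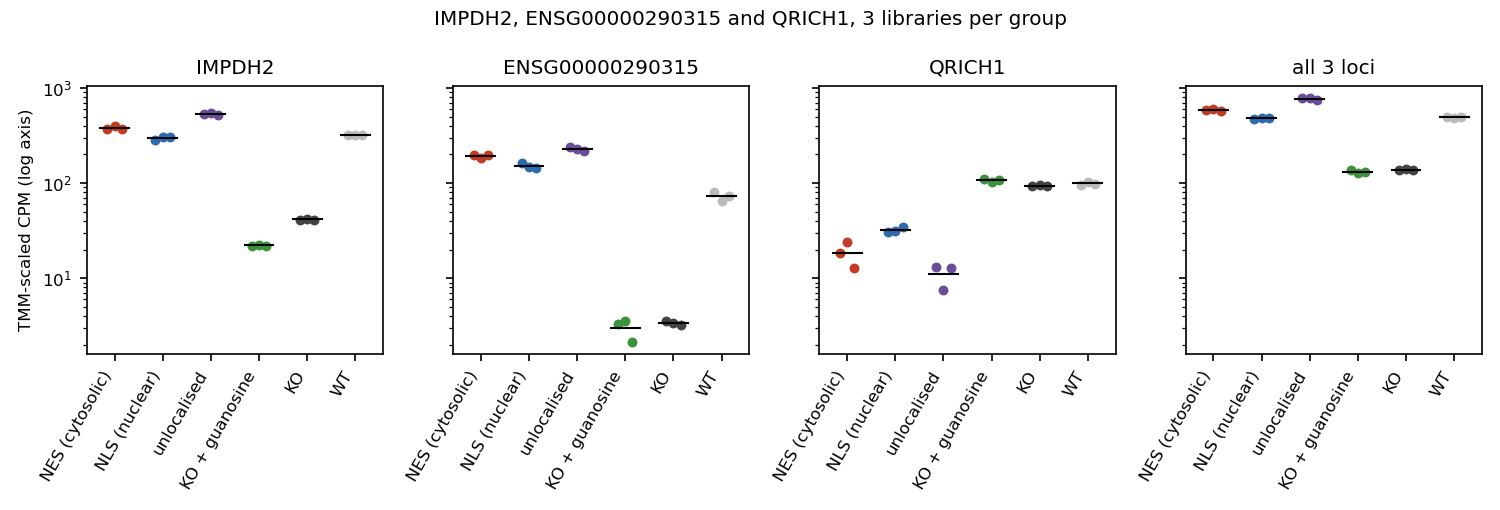
Level of IMPDH2, ENSG00000290315, QRICH1 and their sum (TMM-scaled CPM, log axis) in the 3 libraries of each group, with a line at the group mean. IMPDH2 and ENSG00000290315 are high and QRICH1 is low in all 3 groups with restored IMPDH2, while the sum is 589 CPM in NES and 138 CPM in KO.

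Per length, IMPDH2 reached 260 ± 7.13 TPM in NES cells and 29.5 ± 0.91 TPM in KO cells (SD, n = 3 each). IMPDH1 (ENSG00000106348.19, chromosome 7) had 25.8 ± 1.23 TPM in NES and 27.5 ± 1.91 in KO, so restored IMPDH2 mRNA was about 10.1 times that of IMPDH1. On the CPM scale IMPDH1 read 50.9, 49.0 and 52.2 in NES cells, against 51.1, 50.5 and 50.4 in KO cells. The groups overlapped, and the log2 fold change was -0.00 ± 0.03 SE (adjusted p = 0.988). With library totals in place of TMM scaling it was -0.09 (adjusted p = 0.039), which made it a call. PARP1, on the other hand, was higher, at 370, 370 and 351 CPM in NES cells, against 281, 263 and 271 CPM in KO cells (1.34-fold, adjusted p = 3.03e-10). All 3 NES libraries lay above all 3 KO libraries. The PARP1 mean was 352 CPM with unlocalised IMPDH2 and 251 CPM in WT, and the difference between NES and NLS did not pass the threshold (log2 difference -0.05, adjusted p = 0.155). In TPM, PARP1 averaged 133 ± 3.01 in NES and 77.9 ± 2.4 in KO (SD, n = 3 each). The size of its rise thus depended on the measure. KO cells fed guanosine, without restored enzyme, averaged 141 ± 24.7 TPM of PARP1.

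Of the 19252 genes, 4741 (24.6%) were higher and 5010 (26.0%) lower in NES than in KO cells, so 50.6% were called and a call by itself says little. With library totals in place of TMM scaling, 3266 were higher and 6876 lower, so the share of higher genes among the calls was 48.6% with TMM and 32.2% without. A change of at least 2-fold was met by 239 higher genes (1.24%) and 823 lower genes (4.27%), 5.52% together. Over all genes the log2 fold change had a median of -0.02. The 3 NES values and the 3 KO values did not overlap in 55.3% of genes, so separation of the groups is also common.

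The coding genes with the largest rise in NES cells, after IMPDH2 and ENSG00000290315, covered signalling, adhesion and redox enzymes. DCLK1, a microtubule-linked kinase, had 22.9, 23.3 and 21.2 CPM in NES cells, against 3.72, 2.99 and 3.67 CPM in KO cells (log2 fold change 2.69 ± 0.08 SE, adjusted p = 5.74e-14). MALL, a membrane raft protein of the MAL family, had 4.93, 5.18 and 5.78 CPM in NES and 0.665, 1.12 and 1.06 in KO. PIK3CG, the catalytic subunit of phosphoinositide 3-kinase gamma, had 6.84, 7.14 and 6.50 CPM in NES and 1.37, 1.54 and 1.49 in KO. In each of these the lowest NES library exceeded the highest KO library severalfold. ID1, an inhibitor of basic helix-loop-helix transcription factors, rose 4.03-fold, with 12.3, 17.5 and 16.7 CPM in NES cells and 3.38, 3.78 and 4.39 in KO cells. NEGR1, a neuronal adhesion protein, rose 4.42-fold to a mean of 14.6 CPM in NES, against 3.31 in KO. IL13RA2, the decoy receptor of interleukin-13, was 3.33-fold higher at 3.78, 3.96 and 3.89 CPM in NES, against 1.13, 1.14 and 1.22 in KO. The unlocalised form gave a far higher IL13RA2 level, with a mean of 30.4 CPM. IL13RA2 passed the filter on average level (log2 CPM of at least 1 over all libraries) through that group.

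The most abundant of these raised genes besides IMPDH2 were SLC7A11 and NQO1, which are counted in the NRF2 list below. SLC7A11, the cystine importer that supplies glutathione synthesis, had 251, 238 and 231 CPM in NES cells, against 67.4, 77.6 and 65.2 CPM in KO cells (log2 fold change 1.78 ± 0.07 SE, adjusted p = 1.59e-12). NQO1, a quinone reductase and a standard NRF2 target, had 310, 299 and 273 CPM in NES and 94.0, 99.9 and 90.1 in KO (1.64 ± 0.05, adjusted p = 4.67e-14). Both stood above their WT means of 207 and 189 CPM.

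The largest falls were in secreted and immune genes. CCL2, a chemokine that attracts monocytes (chromosome 17, 34255218 to 34257203, GRCh38), had 0.176, 0.225 and 0.120 CPM in NES cells, against 2.26, 1.998 and 1.98 CPM in KO cells. It was 11.6-fold lower (log2 fold change -3.54 ± 0.20 SE, adjusted p = 8.06e-11), and rested on 9, 14 and 6 counts in the NES libraries. CCL2 passed the filter on average level (log2 CPM of at least 1 over all libraries) through NLS cells, with a mean of 17.4 CPM. The WT mean was 4.32 CPM. IL2RG, the shared gamma chain of interleukin receptors, had 2.30, 2.09 and 2.15 CPM in NES and 16.4, 16.6 and 16.1 in KO, 7.51-fold lower. No NES library of either gene reached the lowest KO library. PI3, the elastase inhibitor elafin, was 5.91-fold lower, with 2.18, 2.49 and 2.73 CPM in NES cells and 13.5, 16.4 and 13.9 CPM in KO cells. PGF, a growth factor of the VEGF family, was 5.50-fold lower at a mean of 0.618 CPM in NES and 3.41 in KO.

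The salivary cystatins CST1, CST2 and CST4, secreted inhibitors of cysteine proteases encoded side by side on chromosome 20, fell together. CST1 had 38.3, 31.3 and 31.9 CPM in NES cells, against 212, 279 and 252 CPM in KO cells. CST2 was 7.66-fold and CST4 6.48-fold lower. These 3 genes are near-identical copies, so how their reads were divided is uncertain. MAGEA6, a testis antigen with close copies, PRSS2, a trypsinogen with close copies, and CMKLR1, the chemerin receptor, completed the 10 largest falls, and each stayed below 1.4 CPM in every library of both groups. These 3 passed the filter on average level through WT cells. CMKLR1 had 3, 1 and 1 counts in NES, 14, 11 and 13 in KO and 1775 to 1940 in WT, and PRSS2 had 1, 3 and 2 counts in NES, 10, 10 and 15 in KO and 619 to 728 in WT, so their folds rest on few counts.

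**Figure D2:**
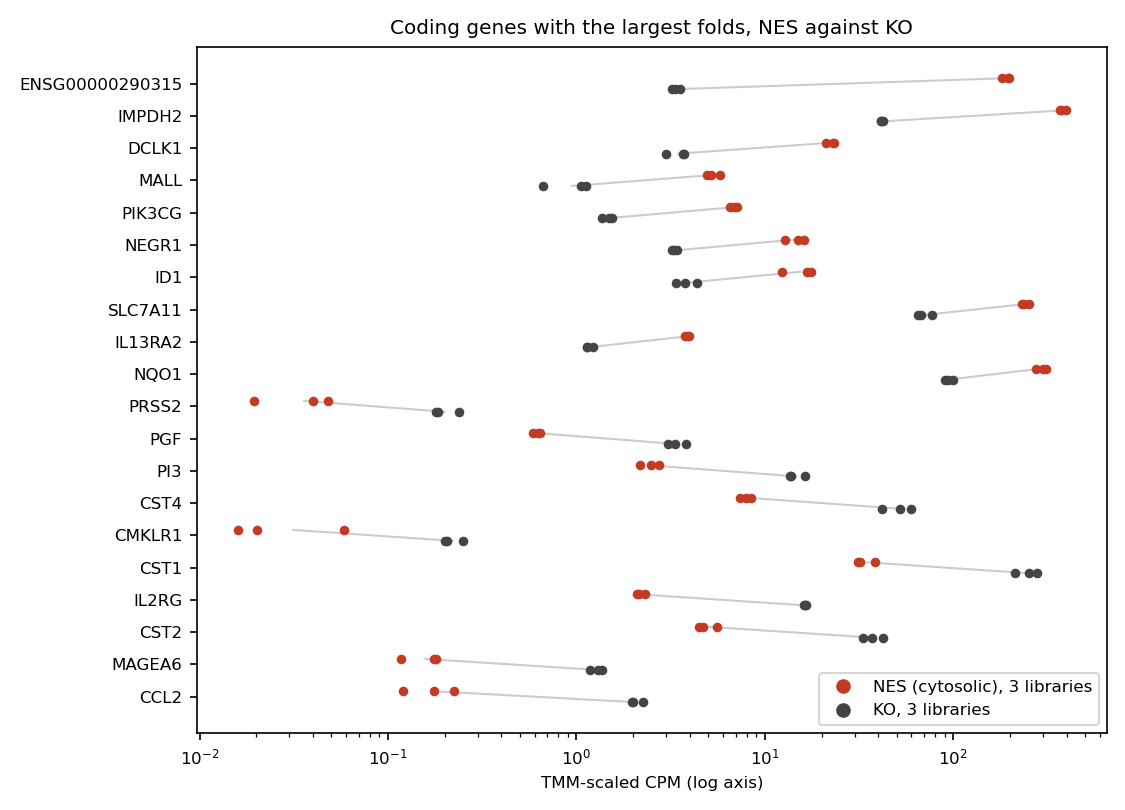
Level (TMM-scaled CPM, log axis) of the 10 coding genes with the largest rise and the 10 with the largest fall in NES against KO, a point per library, with a line between the group means. The 3 NES libraries lie apart from the 3 KO libraries for every gene shown, by rule.

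Genes of mitosis rose as a body. All 37 tested members of the G2/M list were higher in NES cells and none was lower, with a median log2 fold change of 0.85, where 24.6% of all genes were higher and the median was -0.02. Of the 37, 12 rose at least 2-fold. PLK1, the kinase of mitotic entry, had 84.3, 79.2 and 80.8 CPM in NES cells, against 34.3, 34.0 and 34.0 CPM in KO cells (log2 fold change 1.25 ± 0.03 SE, adjusted p = 1.97e-15). BIRC5, which encodes survivin, had 103, 102 and 102 CPM in NES and 48.1, 47.1 and 49.2 in KO (1.09 ± 0.02, adjusted p = 4.04e-16). CCNB1, the mitotic cyclin B1, averaged 207 CPM in NES and 106 CPM in KO, and FOXM1, a transcription factor of mitotic genes, averaged 150 CPM in NES and 83.3 CPM in KO. KO cells fed guanosine, without restored enzyme, averaged 149 CPM for BIRC5 and 192 CPM for FOXM1. The smallest rise of the list was that of CDC25B, a phosphatase that activates CDK1, with a log2 fold change of 0.35. The NES mean of all 37 members was under the WT mean, and 36 were called lower in NES than in WT, where PLK1 averaged 150 CPM and BIRC5 152 CPM.

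Mitotic genes commonly carry 2 promoter elements, the CHR (TTTGAA) bound by the DREAM and MuvB complexes and CCAAT boxes bound by NF-Y. Windows of 250 bases before the RefSeq start were searched on both strands in GRCh38.p14. Of 41 windows of 31 matched list genes, 19 (46.3%) held TTTGAA and 32 (78.0%) held CCAAT, where 13.3% and 32.0% of all 35116 windows did. The windows of PLK1 (chr16:23678639-23678888, plus strand) and of the cyclin gene CCNB2 (chr15:59104896-59105145, plus strand) are shown because both elements stand in them in the classical order, the CHR 29 bases before the start and a CCAAT box 73 bases (PLK1) or 54 bases (CCNB2) before it, in capitals.
PLK1: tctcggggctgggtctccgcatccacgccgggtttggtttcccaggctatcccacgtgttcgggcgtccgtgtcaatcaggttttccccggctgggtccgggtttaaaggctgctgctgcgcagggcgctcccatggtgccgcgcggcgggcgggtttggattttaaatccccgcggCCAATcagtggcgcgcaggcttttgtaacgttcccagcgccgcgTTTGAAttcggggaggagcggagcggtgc
CCNB2: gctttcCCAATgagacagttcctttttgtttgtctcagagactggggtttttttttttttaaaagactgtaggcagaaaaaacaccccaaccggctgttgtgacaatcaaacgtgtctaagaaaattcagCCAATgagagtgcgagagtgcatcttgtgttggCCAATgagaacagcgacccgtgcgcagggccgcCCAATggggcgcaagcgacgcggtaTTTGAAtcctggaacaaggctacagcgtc
CCNB2 itself, chosen for its window, had 49.6, 51.2 and 47.6 CPM in NES cells, against 23.7, 23.8 and 23.2 CPM in KO cells. A match to these letters is a description of the window and not a bound site.

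The replication machinery moved in the same direction with smaller steps. Of 37 tested members 36 were higher and none was lower, with a median log2 fold change of 0.44, and the large clamp loader subunit RFC1 did not pass (0.06). MCM5, a subunit of the replicative helicase, had 95.9, 94.5 and 96.7 CPM in NES cells, against 61.5, 61.2 and 61.7 CPM in KO cells (log2 fold change 0.64 ± 0.02 SE, adjusted p = 6.75e-13). GMNN, which encodes the licensing inhibitor geminin, rose 1.62-fold, and CHAF1A, a subunit of the chromatin assembly factor CAF-1, rose 1.6-fold. Among 22 G1/S regulators 17 were higher and 4 lower, where 24.6% of all genes were higher and 26.0% lower. CCNE2, cyclin E2, had 45.1, 50.8 and 42.6 CPM in NES and 26.3, 24.4 and 22.3 in KO, while MYC was lower, at a mean of 268 CPM in NES and 324 CPM in KO (log2 fold change -0.27, adjusted p = 2.61e-07). Replication-dependent histones, whose messages lack a poly(A) tail and are poorly caught by poly(A) libraries, had 9 of 15 tested members higher and none lower, with a median of 0.79. H1-2 had 25.5, 24.8 and 21.9 CPM in NES cells and 12.1, 12.2 and 11.8 CPM in KO cells.

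In homologous recombination and the Fanconi anaemia pathway 23 of 27 tested members were higher and 2 lower (median 0.50). RAD54L, a motor protein of strand exchange, had 32.8, 32.2 and 31.9 CPM in NES cells, against 19.8, 18.9 and 18.7 CPM in KO cells, and FANCD2, FANCA and FANCM rose 1.68-fold, 1.68-fold and 1.61-fold. FANCF, of the Fanconi core complex, went down 1.34-fold, and RAD52 was called lower by a log2 of -0.14 (adjusted p = 0.0397) but lost that call under most alternatives. In damage signalling and end joining 19 of 30 were higher and 5 lower. The checkpoint mediator CLSPN averaged 112 CPM in NES and 65.4 CPM in KO, and POLQ, the polymerase of microhomology end joining, rose 1.88-fold, while the end-joining factors NHEJ1 and DCLRE1C fell 1.28-fold and 1.21-fold. In KO cells fed guanosine RAD54L averaged 45.1 CPM and POLQ 24.9 CPM (21.6 CPM of POLQ in NES). Base excision repair showed 8 of 21 higher and 9 lower, with a median of -0.01, and went both ways like all genes (24.6% and 26.0%): the glycosylase OGG1 was 1.38-fold lower and polymerase beta (POLB) 1.26-fold lower, while the replication-linked FEN1 and LIG1 rose 1.87-fold and 1.39-fold.

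**Figure D3:**
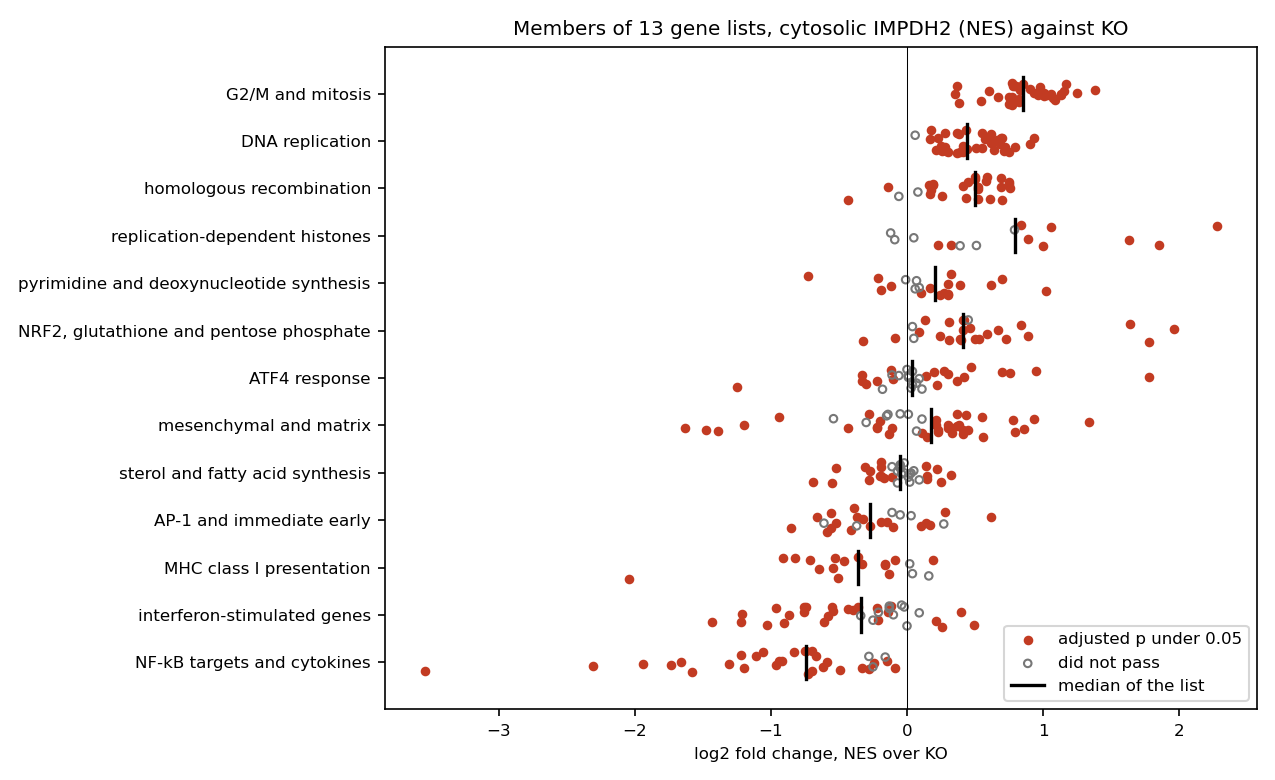
Log2 fold change, NES over KO, of every tested member of 13 gene lists (filled points passed an adjusted p of 0.05, open points did not; the bar is the list median). The G2/M members all lie right of 0 with a median of 0.85, and the NF-kB members all lie left of 0 with a median of -0.74.

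Of 8 enzymes around the guanine branch, 3 were higher (IMPDH2 itself, GMPS and GMPR2) and 1 lower, where 24.6% of all genes were higher and 26.0% lower. GMPS, the next enzyme after IMPDH2, had 117, 111 and 109 CPM in NES cells, against 88.0, 80.8 and 82.9 CPM in KO cells (log2 fold change 0.42 ± 0.03 SE, adjusted p = 7.33e-09). GMPR, which returns GMP to IMP, averaged 24.2 CPM in NES and 30.5 CPM in KO. Of 12 de novo purine synthesis enzymes 5 were higher and 4 lower, within log2 fold changes of -0.29 and 0.47. PRPS2, which makes the ribose donor PRPP, rose 1.39-fold, while ADSL and ATIC fell 1.19-fold and 1.13-fold.

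In purine salvage and nucleoside transport 6 of 20 were higher and 8 lower, in both directions like all genes (24.6% and 26.0%), with log2 fold changes of -1.85 to 0.82. NT5E, the cell surface 5'-nucleotidase CD73, had 588, 570 and 539 CPM in NES cells, against 324, 319 and 318 CPM in KO cells (log2 fold change 0.82 ± 0.03 SE, adjusted p = 8.67e-13). The concentrative nucleoside transporter SLC28A3 had 0.351, 0.369 and 0.422 CPM in NES and 1.44, 1.32 and 1.38 in KO, 3.61-fold lower. For deoxynucleotides 12 of 20 genes were higher and 4 lower. RRM2, the regulated subunit of ribonucleotide reductase, had 324, 338 and 301 CPM in NES and 161, 161 and 153 in KO (1.02 ± 0.03, adjusted p = 1.37e-13), and its partner RRM1 and thymidylate synthase TYMS rose 1.63-fold and 1.54-fold. Uridine phosphorylase UPP1 fell 1.66-fold.

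Serine and folate enzymes, which supply carbon to purines, were higher in 10 of 16 tested members and lower in 2 (median 0.24). The shares over all genes were 24.6% and 26.0%. PSAT1, of serine synthesis, averaged 97.3 CPM in NES and 57.4 CPM in KO, and MTHFD1, of cytosolic folate metabolism, averaged 333 CPM in NES and 234 CPM in KO. The folate receptor FOLR1 was 4.20-fold lower, at 0.507, 0.802 and 0.502 CPM in NES cells and 2.14, 3.06 and 2.50 CPM in KO cells. PHGDH, the first enzyme of serine synthesis, had 0 counts in every NES and every KO library, against a mean of 65.0 CPM in WT, where a count of 0 allows up to 0.0182 CPM in NES and 0.0183 in KO.

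Among PARP family and ADP-ribosylation genes 7 of 23 were higher and 8 lower, near the 24.6% and 26.0% of all genes. PARP2, the second DNA damage-activated member, averaged 99.7 CPM in NES and 73.4 CPM in KO, a rise of 1.36-fold next to the 1.34-fold of PARP1. PARP2 is on chromosome 14, where 63.1% of coding genes were higher in NES (median log2 fold change 0.23). The part of that shift in PARP2 was not tested. PARP3 had 13.7, 14.95 and 14.95 CPM in NES cells, against 20.2, 21.5 and 21.5 CPM in KO cells (1.45-fold lower). Of 20 genes of NAD metabolism 5 were higher and 9 lower, with a median log2 fold change of -0.16. NNMT, which methylates nicotinamide, was 4.33-fold lower at 0.585, 0.882 and 0.723 CPM in NES and 3.59, 2.97 and 3.02 in KO, and the mitochondrial deacylase SIRT5 fell 1.49-fold.

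NF-kB is a transcription factor family held inactive by IkB proteins until cytokines or stress release it, and it drives many cytokine genes as well as its own inhibitors. Of 32 tested members of this list 29 were lower in NES cells and none was higher, with a median log2 fold change of -0.74, where 26.0% of all genes were lower. Of these 11 fell at least 2-fold. ICAM1, an adhesion molecule for leukocytes, had 19.8, 18.04 and 19.1 CPM in NES cells, against 86.6, 98.6 and 95.7 CPM in KO cells (log2 fold change -2.31 ± 0.08 SE, adjusted p = 1.93e-13). TRAF1, a signalling adaptor, had 7.68, 7.84 and 8.13 CPM in NES and 22.6, 24.0 and 24.2 in KO. The NES libraries of both genes lay below every KO library, and the means stood 4.95-fold and 2.99-fold lower. KO cells fed guanosine averaged 41.0 CPM for ICAM1 and 8.33 CPM for TRAF1.

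Among subunits and inhibitors of NF-kB itself, NFKB2 fell 1.59-fold and the ubiquitin editor TNFAIP3 1.66-fold, near the list median, and the log2 fold change of RELA was -0.15. Of the cytokines, IL6 averaged 2.61 CPM in NES and 8.68 CPM in KO, and IL1B averaged 2.57 CPM in NES and 9.91 CPM in KO. The 3 members that did not pass were REL, CXCL3 and CCL5 (log2 fold changes -0.16, -0.28 and -0.25).

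A palindromic NF-kB motif, GGAANTTCC, stood in 10 of 39 windows of 27 matched list genes (25.6%), where 0.826% of all windows held it. ICAM1 (chr19:10270870-10271119, plus strand) and CXCL8 (chr4:73740319-73740568, plus strand), the interleukin-8 gene, are shown with this motif in capitals, 186 and 91 bases before the start.
ICAM1: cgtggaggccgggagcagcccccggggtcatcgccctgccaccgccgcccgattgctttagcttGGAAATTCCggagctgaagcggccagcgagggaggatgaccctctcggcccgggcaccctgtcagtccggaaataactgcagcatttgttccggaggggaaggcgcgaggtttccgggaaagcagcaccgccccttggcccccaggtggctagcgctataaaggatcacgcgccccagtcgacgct
CXCL8: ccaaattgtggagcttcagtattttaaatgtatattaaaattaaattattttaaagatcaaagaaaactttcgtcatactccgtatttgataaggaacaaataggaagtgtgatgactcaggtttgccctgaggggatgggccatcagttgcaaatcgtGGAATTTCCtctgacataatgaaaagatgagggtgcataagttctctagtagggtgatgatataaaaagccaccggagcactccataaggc
CXCL8, chosen for its window, had 17.3, 22.6 and 19.8 CPM in NES cells, against 36.7, 41.7 and 36.5 CPM in KO cells (log2 fold change -0.94 ± 0.07 SE, adjusted p = 5.83e-09).

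Interferon-stimulated genes, the antiviral effectors switched on by interferon signalling, were lower in 21 of 35 tested members and higher in 4 (median -0.34). Among all genes 26.0% were lower and 24.6% higher. IFITM3, which blocks viral fusion, had 205, 194 and 200 CPM in NES cells, against 368, 362 and 388 CPM in KO cells (log2 fold change -0.90 ± 0.04 SE, adjusted p = 3.51e-12). BST2, which tethers budding virions, had 30.3, 31.6 and 31.4 CPM in NES and 50.6, 53.4 and 54.2 in KO, and IFI27 fell 2.31-fold. IRF9, the DNA-binding subunit of the interferon factor, fell 1.46-fold. The list was not uniform: IFI44 rose 1.41-fold, and the IFIT genes IFIT1 and IFIT3 did not pass (0.09 and -0.02).

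The interferon response element GAAA, 2 bases, GAAA stood in 22 of 36 windows of 27 matched list genes (61.1%), where 3.02% of all windows held it. The windows of BST2 (chr19:17405631-17405880, minus strand) and IFITM3 (chr11:320861-321110, minus strand) each hold 2 copies, overlapping in BST2 at 130 and 124 bases before the start and apart in IFITM3 at 52 and 35 bases before it.
BST2: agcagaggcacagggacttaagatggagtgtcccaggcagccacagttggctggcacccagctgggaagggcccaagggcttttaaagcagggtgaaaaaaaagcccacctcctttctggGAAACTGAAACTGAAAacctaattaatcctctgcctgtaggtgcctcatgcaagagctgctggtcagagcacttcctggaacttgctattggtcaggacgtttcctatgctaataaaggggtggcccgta
IFITM3: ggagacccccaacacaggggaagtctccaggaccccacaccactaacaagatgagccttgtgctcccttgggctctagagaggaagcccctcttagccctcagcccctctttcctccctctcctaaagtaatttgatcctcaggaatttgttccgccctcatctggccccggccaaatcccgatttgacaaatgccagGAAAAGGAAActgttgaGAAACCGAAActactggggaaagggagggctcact
The capitals mark the element. IFITM3 has close copies in the genome, so its reads may be shared with them.

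Antigen presentation by MHC class I fell with it: 15 of 19 tested members were lower and only TAPBP, the tapasin gene, was higher (median -0.36). HLA-B had 284, 294 and 304 CPM in NES cells, against 540, 560 and 556 CPM in KO cells (log2 fold change -0.91 ± 0.04 SE, adjusted p = 2.23e-12). The immunoproteasome subunits PSMB9 and PSMB8 fell 1.77-fold and 1.63-fold. The HLA genes are similar to one another and differ between people, so their split is uncertain. Of 20 nucleic acid sensors and adaptors 8 were lower and 4 higher, and STING1, the adaptor of cytosolic DNA sensing, averaged 27.3 CPM in NES and 39.0 CPM in KO. Of the immediate early genes 14 of 25 were lower and 5 higher. For each of these lists the shares over all genes were 26.0% lower and 24.6% higher. DUSP6, a phosphatase of ERK, had 518, 561 and 534 CPM in NES and 793, 804 and 774 in KO, while the AP-1 subunit FOSL1 rose 1.53-fold.

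The NRF2 list, with glutathione and pentose phosphate enzymes, was higher in 21 of 26 tested members and lower in 2 (median 0.42). Among all genes 24.6% were higher and 26.0% lower. Besides SLC7A11 and NQO1, thioredoxin reductase TXNRD1 had 700, 702 and 651 CPM in NES cells, against 369, 378 and 361 CPM in KO cells (log2 fold change 0.89 ± 0.03 SE, adjusted p = 5.74e-14). GPX4, the peroxidase of membrane lipids, was lower, at a mean of 142 CPM in NES and 176 CPM in KO. The antioxidant core TGACNNNGC stood in 7 of 26 windows of 20 matched list genes (26.9%), where 10.9% of all windows held it.

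The ATF4 list, genes of the amino acid and integrated stress response, split: 12 of 31 tested members were higher and 7 lower, with a median of 0.04 in the plot of list members. The amino acid importer SLC7A5 rose, at 438, 437 and 425 CPM in NES cells, against 257, 278 and 267 CPM in KO cells. The pro-apoptotic DDIT3 (CHOP) fell 2.38-fold, with 15.97, 17.9 and 17.02 CPM in NES and 42.5, 40.0 and 38.9 in KO, and ATF4 itself fell 1.16-fold. In the unfolded protein response 6 of 22 were higher and 9 lower, and the chaperone HSPA5 averaged 797 CPM in NES and 968 CPM in KO. For both lists the shares over all genes were 24.6% higher and 26.0% lower.

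Mesenchymal and matrix genes were higher in 24 of 44 tested members and lower in 12, where 24.6% of all genes were higher and 26.0% lower. MMP14, a membrane-bound matrix protease, had 614, 645 and 643 CPM in NES cells, against 330, 373 and 347 CPM in KO cells (log2 fold change 0.86 ± 0.04 SE, adjusted p = 4.07e-12), and the laminin receptor ITGA6 rose 1.73-fold. CDH11, a mesenchymal cadherin, and COL6A2, a collagen VI chain, fell 2.30-fold and 2.78-fold. Of 23 YAP and TEAD targets 14 were higher and 5 lower with TMM scaling and 7 were higher with library totals, and CCN1, a matrix protein, was lower. In the EGFR list the ligand EREG had 38.6, 41.9 and 38.0 CPM in NES and 21.5, 22.8 and 19.6 in KO. Of the basal markers 7 of 8 were higher, among them CAV1 and MSN (1.57-fold and 1.36-fold).

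Ribosome biogenesis had 17 of 36 members higher and 7 lower, with NOP56, of the snoRNP core, at a mean of 385 CPM in NES and 280 CPM in KO, but 11 higher and 12 lower with library totals. Ribosomal proteins had 17 of 50 higher and 15 lower, the respiratory chain 12 of 41 and 13, and glycolysis and hypoxia 13 of 33 and 11. For every list in this paragraph the shares over all genes were 24.6% higher and 26.0% lower. Sterol and fatty acid synthesis had 6 of 33 higher and 12 lower, and 22 lower with library totals. SCD, which desaturates stearate, had 355, 346 and 341 CPM in NES cells and 489, 492 and 511 CPM in KO cells. Of 13 mitochondrially encoded genes 8 were higher and 2 lower, with log2 fold changes of -0.19 to 0.67. For p53 targets the counts were 7 of 30 higher and 12 lower, for apoptosis regulators 3 of 15 and 6, for TGF-beta, BMP and ID genes 12 of 28 and 6, and for mTORC1 genes 12 of 28 and 7.

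The nuclear form gives the comparison that asks what the place of the enzyme changes. NES and NLS cells were compared directly: 2029 genes (10.5%) were higher and 2571 (13.4%) lower in NES, 23.9% together, and 1.73% differed at least 2-fold. With an offset for transcript length 772 were higher and 1086 lower, 1858 in all, and the list counts against NLS were not computed with it. IMPDH2 itself differed, with means of 379 CPM in NES and 297 CPM in NLS (log2 difference 0.35, adjusted p = 1.33e-07), so the place and the amount of the enzyme cannot be told apart here. Both rescues are set against the same KO libraries, and each value beside KO below shares them.

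CCL2 differed most, with 0.176, 0.225 and 0.120 CPM in NES cells, against 19.9, 14.7 and 17.5 CPM in NLS cells. KO cells, at 2.26, 1.998 and 1.98 CPM, lay between them. The difference was 96.9-fold (log2 -6.60 ± 0.18 SE, adjusted p = 1.39e-13), and the fold changes from KO were -3.54 in NES and 3.06 in NLS. CCL2 passed the filter on average level through NLS itself, and its NES values rest on 9, 14 and 6 counts. SPOCK1, a matrix proteoglycan, had 0.507, 0.481 and 0.642 CPM in NES and 2.65, 2.84 and 2.66 in NLS, around 1.26 CPM in KO. Its NES values rest on 26, 30 and 32 counts. SPOCK1 passed the filter on average level through WT, with a mean of 6.84 CPM there. TIE1, an endothelial receptor kinase, had 2.36, 2.55 and 2.41 CPM in NES and 10.0, 10.9 and 10.7 in NLS, around 4.87 CPM in KO.

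In the other direction, MMP3 (stromelysin, chosen with the following 4 genes after their values were seen) had 92.5, 123 and 110 CPM in NES cells, against 26.6, 37.8 and 32.8 CPM in NLS cells and 42.4, 46.5 and 40.5 CPM in KO cells. The keratin-associated KRTAP2-3 averaged 116 CPM in NES and 39.5 CPM in NLS, with 63.0 CPM in KO. The antiviral OAS1 went the way of CCL2, with 2.26, 2.18 and 2.29 CPM in NES and 5.98, 5.79 and 6.27 in NLS. The MHC class II genes HLA-DOA and HLA-DPB1 were also lower in NES than in NLS, by log2 differences of -1.85 and -1.29. HLA-DOA passed the filter on average level through NLS, with a mean of 4.63 CPM there.

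**Figure D4:**
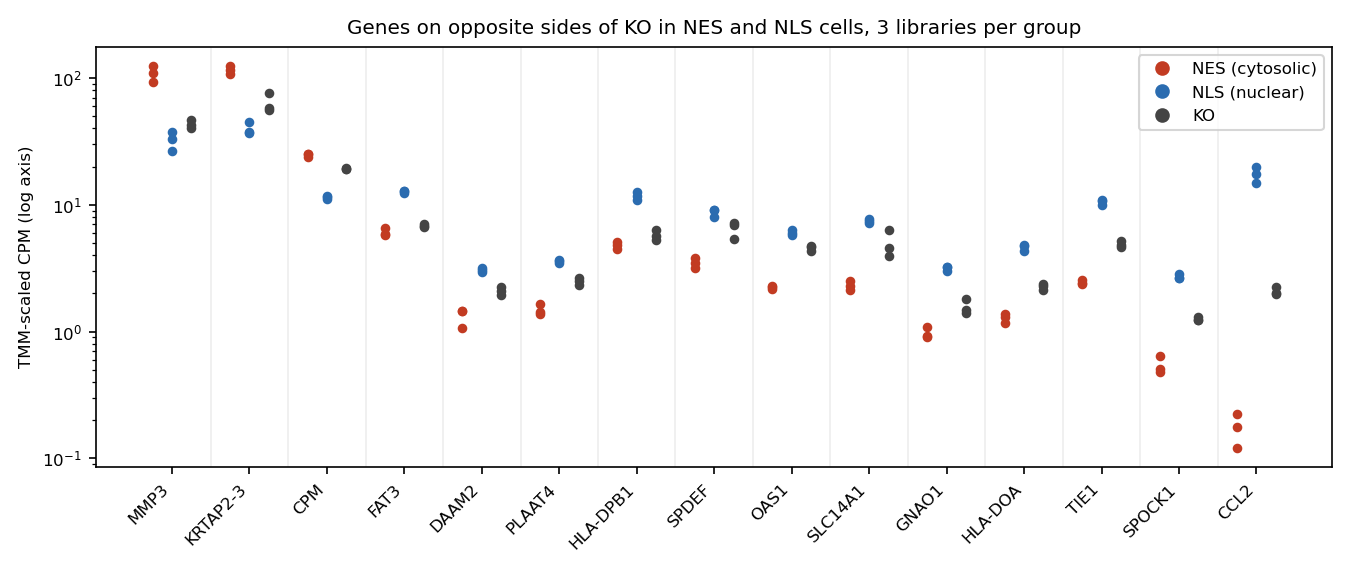
Level (TMM-scaled CPM, log axis) of 15 coding genes called on opposite sides of KO in NES and NLS cells, a point per library. They differed at least 2-fold between NES and NLS and had an average log2 CPM of at least 1. Without the coding and level rules 26 genes met this. Only MMP3, KRTAP2-3 and CPM are higher in NES among the 15 shown, and CCL2 has the widest gap. CCL2 and HLA-DOA met the level rule through NLS, and SPOCK1 through WT.

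By the rule for the largest differences, DCAF8L1, SERPINB2, SELENBP1, DHRS2 and TMPRSS15 were highest in NES over NLS, and CCL2, CMKLR1, SPOCK1, ALPP and TIE1 lowest. SERPINB2, with 19, 51 and 16 counts in NES and 5, 2 and 2 in NLS, and CMKLR1, with 3, 1 and 1 in NES and 14, 12 and 27 in NLS, passed the filter on average level through WT, and their places rest on few counts. SPOCK1 also passed it through WT, and CCL2 through NLS itself. DCAF8L1, of a ubiquitin ligase receptor family, had 3.02, 3.42 and 3.15 CPM in NES cells and 0.317, 0.213 and 0.414 CPM in NLS cells, while KO had 5.50, 5.30 and 5.53. SELENBP1, a methanethiol oxidase, had 2.67, 2.61 and 2.81 CPM in NES and 0.820, 0.673 and 0.749 in NLS. Its level in NES did not pass against KO (log2 fold change -0.20, adjusted p = 0.185). SERPINB2, a plasminogen activator inhibitor, stayed below 1 CPM in all NES, NLS and KO libraries, against a mean of 48.7 CPM in WT.

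Across lists, the mitotic genes of NES cells stood slightly below those of NLS cells: 17 of 37 were lower and 2 higher (median log2 difference -0.10), with PLK1 at -0.16. DNA replication showed 5 of 37 higher and 4 lower, with a median of 0.00, where 10.5% of all genes were higher and 13.4% lower. Interferon-stimulated genes were lower in 21 of 35 and higher in 3 (median -0.30). DDX60, a helicase of RNA sensing, had 19.96, 18.1 and 18.4 CPM in NES cells, against 36.4, 33.4 and 34.7 CPM in NLS cells (log2 difference -0.89 ± 0.05 SE, adjusted p = 3.47e-09), and IFIT2 and IFIT3 averaged 130 and 127 CPM in NES and 202 and 194 CPM in NLS. Sterol and fatty acid genes were lower in 22 of 33 and higher in 1 (median -0.14), with SCD at -0.57 (adjusted p = 3.93e-07).

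Other lists stood higher in NES than in NLS, where 10.5% of all genes were higher and 13.4% lower. The ATF4 list had 16 of 31 members higher and 2 lower, led by the amino acid transporter subunit SLC3A2 with 242, 252 and 243 CPM in NES cells and 157, 174 and 166 CPM in NLS cells (log2 difference 0.57 ± 0.03 SE, adjusted p = 2.22e-09). The NRF2 list had 12 of 26 higher and 1 lower, and the ferritin chains FTL and FTH1 differed by 0.64 and 0.43. Immediate early genes had 13 of 25 higher and 3 lower: EGR1 stood at 51.8, 52.2 and 52.9 CPM in NES and 27.5, 32.4 and 29.5 in NLS. Replication-dependent histones had 8 of 15 higher and none lower. NF-kB members split, with 5 of 32 higher and 12 lower. PTGS2, cyclooxygenase 2, was 0.87 higher on the log2 scale, and ICAM1 0.83 lower, with 34.9, 31.0 and 35.4 CPM in NLS.

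Against the unlocalised form, 2073 genes (10.8%) were higher and 2588 (13.4%) lower in NES cells, 24.2% together, and 1.19% differed at least 2-fold. With an offset for transcript length 634 were higher and 1081 lower, and without NES replicate 2, 1377 were higher. IMPDH2 itself was lower in NES, at 379 ± 13.9 CPM, against 532 ± 10.4 CPM with the unlocalised form (SD, n = 3 each). Interferon-stimulated genes had no member higher and 23 of 35 lower (median -0.39), MHC class I 2 of 19 higher and 15 lower, NF-kB members none of 32 higher and 18 lower (median -0.42), and sterol and fatty acid synthesis none of 33 higher and 26 lower (median -0.23). ICAM1 averaged 19.0 CPM in NES and 51.6 CPM with the unlocalised form, and IL6 averaged 2.61 CPM in NES and 6.70 CPM with it. For mitosis 3 of 37 members were higher and 3 lower, with a median of -0.00, and ribosome biogenesis had 16 of 36 higher and none lower.

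In NES against KO, genes of chromosome 14 stood apart from those of other chromosomes. Of 453 tested coding genes there, 63.1% were higher and 11.7% lower in NES than in KO, with a median log2 fold change of 0.23. On chromosome 13, 43.5% of 237 were higher and 17.7% lower (median 0.08), while the medians of the other autosomes and X lay between -0.04 and 0.02. The median of chromosome 14 was also 0.15 over NLS, 0.21 over the unlocalised form and 0.32 over WT, and for KO over WT it was 0.08. Over WT other chromosomes shifted further, with NES medians of -0.74 on chromosome 18 and -0.42 on chromosome 1. For KO over WT these were -0.75 and -0.44. No tested member of the G2/M or NRF2 list is on chromosome 13 or 14, 1 of 32 NF-kB members and 2 of 35 interferon-stimulated genes are on chromosome 14, and the part of this shift in single genes was not tested. Named genes on chromosome 14 include PARP2, MTHFD1, GMPR2, FANCM and DHRS2.

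**Figure D5:**
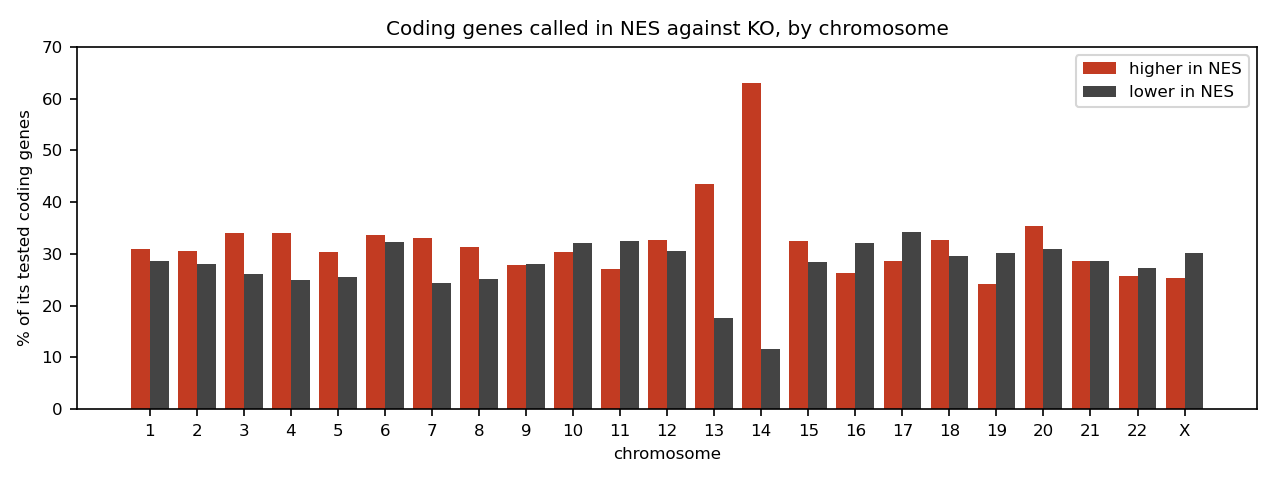
Share of the tested coding genes of each chromosome called higher (left bar) and lower (right bar) in NES than in KO, in percent from 0. Chromosome 14 has 63.1% higher and 11.7% lower, and chromosome 13 has 43.5% higher and 17.7% lower.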

How the data were processed

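Per the labels' protocols, 500 ng of PureLink-purified RNA entered TruSeq stranded mRNA libraries. The submitters' processing notes name Trim Galore 0.6.10, Salmon 1.10.0 and the build hg19, though the transcript names fit GENCODE and positions here are GRCh38 from GENCODE 29. The authors deposited estimated counts per transcript (per the file headers) and TPM values in per-sample tables. Estimated counts of 252048 transcripts were summed to 62749 genes and rounded, since 32.5% were not whole, and deposited TPM values were summed likewise. edgeR 4.0.16 (R 4.3.3) was fitted to all 18 libraries (filterByExpr, TMM, a mean per group, quasi-likelihood test), because a shared spread rests on more libraries; SE is the log2 fold change over the root of its F. Test settings were checked on simulated data.

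The members, the 38 gene lists and the tests were chosen with earlier results of these data known. Named are IMPDH2, IMPDH1, PARP1, the 10 highest and 10 lowest coding genes in NES against KO and 5 and 5 in NES against NLS (adjusted p under 0.05, average log2 CPM over all libraries of at least 1, no overlap), and up to 4 members per list in its direction and 2 against it. The text gives only some of these. Promoter windows are RefSeq's of GRCh38.p14. Alternatives were DESeq2 size factors, DESeq2 1.42.0, no filter, the 6 libraries alone, a length offset, coding genes alone, a replicate block, each library left out, and, added after seeing the data, library totals. In bulk RNA, fewer cells of a kind and less RNA per cell cannot be told apart. Totals per library are in the report; low genes rest on few counts.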

Additional observations from a re-analysis of the deposited data

Results flagged for a closer look

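In 6 named genes, the level stood on opposite sides of KO in NES and NLS cells, each time lower in NES. Each change and the difference between NES and NLS passed the threshold (edgeR, Benjamini-Hochberg adjusted p). Of all 19252 genes 208 met this, 134 of them lower and 74 higher in NES, and 26 differed at least 2-fold. Both changes share the KO libraries. CCL2 passed the filter on average level through NLS and had 9, 14 and 6 counts in NES. SPOCK1 passed it through WT and had 26, 30 and 32. The log2 difference of NES against NLS was -6.60 for CCL2 (-3.54 from KO in NES, 3.06 in NLS), -2.32 for SPOCK1 (-1.21 and 1.11), -2.11 for TIE1 (-1.0 and 1.12), -0.50 for NMNAT2, which makes NAD+ (-0.35 and 0.16), -0.35 for the receptor ERBB3 (-0.16 and 0.18), and -0.33 for mitochondrial thymidine kinase TK2 (-0.19 and 0.14). With an offset for transcript length the NES change from KO of TK2 became 0.97 (adjusted p = 0.221) and that of ERBB3 0.27 (adjusted p = 0.244), which ends the opposite directions in both. Adjusted p for these differences ran up to 0.000189, for ERBB3. All 3 NES libraries lay below all 3 NLS libraries in each of the 6 genes. For CCL2, SPOCK1 and TIE1 the rule of choice required this. Of all genes, 36.2% did not overlap between NES and NLS.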

How the results depend on the processing

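IMPDH2, the 2-fold counts and the counts of called genes kept within 1.5 times under the alternatives, with these exceptions. A transcript length offset gave 3146 genes higher against KO, 772 higher, 1086 lower and 1858 in all against NLS, and 634 higher, 1081 lower and 1715 in all against the unlocalised form. Coding genes alone gave 650 genes changed at least 2-fold against KO (147 higher, 503 lower), and no filter gave 404 at least 2-fold higher. With each library left out in turn, the range was 8884 to 9383 called against KO (4275 to 4682 higher, 4385 to 4812 lower), 1004 to 1085 at least 2-fold (222 to 244 higher, 773 to 862 lower), 3590 to 4186 against NLS (1553 to 1915 and 2018 to 2271), 3510 to 4711 against the unlocalised form (1377 to 2170 and 2101 to 2541) and 3.15 to 3.2 for IMPDH2. The 1377 came without NES replicate 2. The cause of these was not tested.

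Same-numbered NES and KO libraries correlated in their deviations at 0.069, -0.002 and 0.142, and differently numbered ones at -0.131 to 0.075. With 3 libraries per group these values cannot tell whether the numbers pair the libraries. With a replicate block, 4683 genes were higher and 4916 lower against KO, and of the named genes only RAD52 lost its call (adjusted p = 0.0565).

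The log2 fold change against KO turned for IMPDH1, uncalled at -0.00 (called at -0.09 with library totals), to 0.01 with DESeq2 size factors, no filter and DESeq2, 0.00 with the 6 libraries alone and 0.02 without KO replicate 1 or NES replicate 2 (range -0.03 to 0.02 with a library left out); for SERPINB2 to -0.01 without NES replicate 2 (range -0.01 to 0.9); for DHRS2 to -0.06 with library totals, -0.08 without KO replicate 3 and -0.05 without NES replicate 2 (range -0.08 to 0.14); and with a length offset for TK2 to 0.97 and ERBB3 to 0.27. Of 240 results for named genes, 213 kept their direction and call under every alternative.

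Of 76 counts of list members higher or lower against KO, 21 moved by over 1.5 times with the length offset and 19 with library totals, and at most 5 under any other alternative. The G2/M members higher numbered 36 and the NF-kB members lower 27 with the length offset, and interferon-stimulated genes lower 15.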
